A study of Danio rerio with 6 samples.

Results

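Interferon response genes were followed in RNA of zebrafish whole kidney marrow, the tissue where adult blood cells form, with no cells sorted out. The genes were 35 listed symbols for interferon sensing, signalling and induced defence, matched without regard to case to the features of the deposited table. Of these, 27 were found among the 32267 features, and 23 of the 27 had a mean normalized count of at least 10, the minimum for the test used here. The comparison asked what role interleukin 7 has in lymphocyte development, and it set 3 libraries of wild-type control fish (genotype wt) against 3 libraries of fish whose il7, the gene of that cytokine, lacks exons 2 to 4 through an internal deletion. Both groups had the background strain TLEK and were unfractionated. The labels used here give no age, sex or number of fish for a library, so p-values measure the spread between these libraries, which may be technical.

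Interferons are secreted proteins that cells release after sensing foreign nucleic acid. They bind paired receptor chains whose Janus kinases phosphorylate STAT proteins, and a complex that holds STAT2 and IRF9 then switches on genes that block viral entry, translation and replication. In zebrafish the type I interferons are the ifnphi genes, and crfb1 and crfb2 encode receptor chains that bind different subsets of them. Blood-forming tissue carries this machinery at rest, and its macrophages and neutrophils are known to take part in interferon responses of fish.

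Kidney marrow of il7 mutants held interferon response genes at levels that overlapped those of controls for 21 of the 23 fitted genes. Over all fitted genes, groups did not overlap for 7.94%, close to the share among the 23. The extent of overlap was thus not particular to these genes. The exceptions among the 23 were mxc and ifit14. The Mx GTPase gene mxc had less signal in every mutant library than in any control library. The IFIT family gene ifit14 had more, and reached the minimum for testing only through its mutant values. None of the 23 passed limma's test at an adjusted p under 0.05, and 1, mxc, lower in mutants, had an unadjusted p under that value, which it did not have without control 1, without il7 mutant 1 or without the pair of oocyte-rich libraries, control 1 and il7 mutant 2. The same limma test called 0.0% of the 20782 fitted genes after adjustment and 3.48% before it (723 genes), or 2.12% counting those lower in mutants, and the authors' deposited table called 0.521% of the genes with an adjusted p and 0 of the 25 interferon response genes that have one. The median log2 change of the 23 genes, on the log2(normalized count + 1) scale, was 0.06 in mutants relative to controls, beside −0.04 over all fitted genes, with 18 positive and 5 negative values beside 9530 and 11252 over all fitted genes. In bulk tissue, fewer cells of a type and less RNA per cell cannot be told apart.

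Reads assigned to genes numbered 34496353 to 46120889 per library. The targeted gene il7 stood at 89.8, 61.6 and 57.7 normalized counts in controls, against 16.5, 17.8 and 4.00 in mutants, with no overlap (two-sided exact permutation test, p = 0.1, the smallest that 3 against 3 allows). Deleted exons give no reads, so this count cannot separate the deletion from lower expression. Limma did not call il7 after adjustment (limma unadjusted p = 0.00703), while the authors' deposited table did (DESeq2 adjusted p = 0.0403). Markers of red cells, neutrophils and kidney tubule were present in each library, with hbaa1 at 43576 to 265616, lyz at 91519 to 180516 and CDH17 at 50598 to 112854 normalized counts. Control 1 and il7 mutant 2 stood apart: their 5 oocyte markers summed to 100265 and 52797 normalized counts, against 139 to 799 in the other 4 libraries. Other tissues differed too. The 2 muscle markers summed to 49382 in control 3 and 96530 in il7 mutant 1, against 2884 to 10926 elsewhere. The 5 liver markers summed to 1289 to 2840 in controls, against 2355 to 6627 in mutants. The authors' deposited table called 1 of these 5, apoa1b, against 0.521% of its genes.

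**Figure D1:**
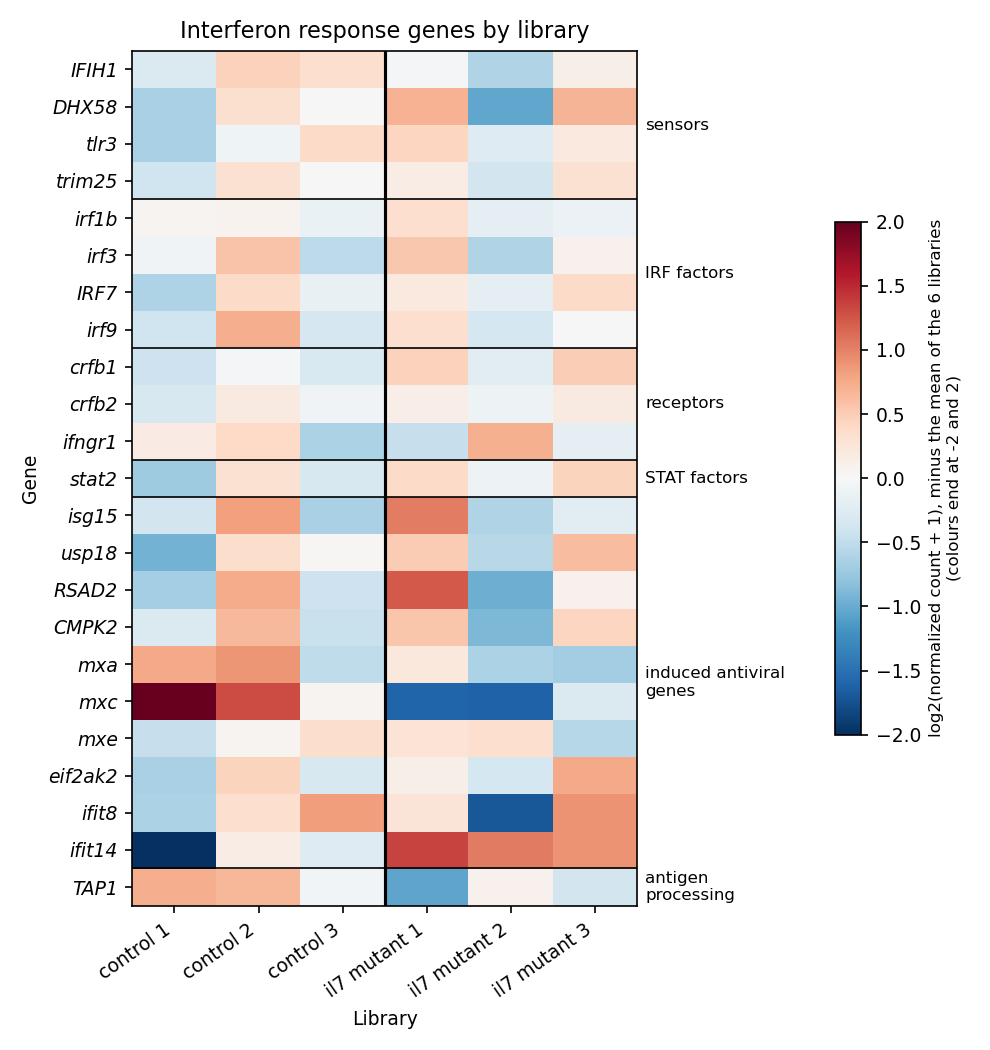
Log2(normalized count + 1) of the 23 fitted interferon response genes (rows, by role) in the 6 libraries (columns), minus each gene's mean over the libraries. Control 1 and il7 mutant 2 have the lowest medians, −0.40 and −0.36, and hold the lowest 2 values of 11 of the 23 genes, while the other 12 have other lowest pairs.

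Among the 4 RNA sensing genes, trim25 encodes a ubiquitin ligase that promotes RIG-I signalling in mammals. Its normalized counts were 1665, 2722 and 2212 in controls, against 2456, 1707 and 2730 in mutants, so the groups covered nearly the same range. Its log2 change was 0.06 (95% interval −0.61 to 0.74). DHX58 encodes LGP2, a helicase that modulates the sensing of viral RNA in the cytosol, and varied most of the 4 at 277, 545 and 439 in controls, against 707, 212 and 699 in mutants. Mutants 1 and 3 were above all controls and mutant 2 was below all of them, and the log2 change of 0.22 (SE 0.55) was 0.80 without il7 mutant 2 and −0.07 without il7 mutant 1. The double-stranded RNA sensor gene IFIH1, known as MDA5, had 456 ± 117 normalized counts in controls, against 358 ± 88.5 in mutants (SD, n = 3). The endosomal receptor gene tlr3 had 378 ± 130 and 436 ± 100 (SD, n = 3). All 4 sensing genes had their lowest values in control 1 and il7 mutant 2.

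The interferon regulatory factors induce interferon genes or, in the case of IRF9, carry the signal from the receptor to the nucleus. The factor gene irf1b, at 2572, 2577 and 2243 normalized counts in controls, against 3116, 2145 and 2269 in mutants, had the narrowest range of the 4, and the mutants spanned the controls. The log2 change of irf1b was 0.01 (95% interval −0.51 to 0.53). The widest range of the 4 belonged to irf3, at 181, 283 and 131 in controls, against 275, 125 and 201 in mutants, again with full overlap. IRF7, which in mammals amplifies type I interferon, had 597 ± 209 in controls, against 694 ± 135 in mutants (SD, n = 3), and irf9 had 580 ± 276 and 553 ± 132 (SD, n = 3). The median log2 change of the 4 factors was 0.01.

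Of the receptor chain genes, 3 were found. The type I chain gene crfb1 had 314, 412 and 338 normalized counts in controls, against 579, 362 and 592 in mutants. Mutants 1 and 3 were above all controls and mutant 2 lay among them. Its log2 change of 0.50 (SE 0.29, 95% interval −0.20 to 1.2) had an adjusted p of 1.00 in limma. The neighbouring chain gene crfb2 stood at 202, 286 and 241 in controls, against 276, 235 and 286 in mutants, with a log2 change of 0.14 (SE 0.27). The gene for a chain of the interferon gamma receptor, ifngr1, had few counts, at 55.1, 64.7 and 31.1 in controls, against 35.4, 80.3 and 43.0 in mutants. It was highest in il7 mutant 2, unlike the type I chains. A symbol table of RefSeq gives crfb17, another listed name, as a synonym of ifngr1, so those entries may be a single gene.

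Of the STAT genes, stat2 alone is described here, and it encodes a STAT that joins IRF9 in the type I response. Its normalized counts were 1847, 3705 and 2422 in controls, against 3920, 2826 and 4096 in mutants. Controls 1 and 3 were below all mutants, while control 2 was above il7 mutant 2. For stat2 the log2 change was 0.48 (SE 0.31, 95% interval −0.26 to 1.23) and lay between 0.25 without control 1 and 0.75 without control 2.

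The widest ranges of the 23 genes belonged to the induced antiviral genes ifit14, mxc, ifit8 and RSAD2, each with at most 108 normalized counts in a library. Not every induced gene varied as much, and mxe ranged less than DHX58 or TAP1. Groups overlapped for 8 of the 10 fitted induced genes and lay apart for mxc and ifit14, against 7.94% of all fitted genes. Because ifit14 passed the minimum only through its mutant values, this is not read as an excess among the induced genes. Ubiquitin-like isg15, a protein tag attached to other proteins during the response, had 243, 560 and 200 normalized counts in controls, against 641, 208 and 270 in mutants. One library of each group, control 2 and il7 mutant 1, was more than 2 times as high as any other library of that group. For isg15 the log2 change was 0.13 (SE 0.57), and was 0.58 without control 2 and −0.34 without il7 mutant 1. RSAD2, the gene of the antiviral enzyme viperin, followed at 28.4, 77.8 and 34.4 in controls, against 108, 22.8 and 49.0 in mutants. CMPK2, a mitochondrial nucleotide kinase gene that is the next protein-coding gene to rsad2 in the RefSeq gene order of build GRCz12tu, had 53.6, 103 and 47.7 in controls, against 96.7, 34.7 and 88.9 in mutants. The same pair of libraries, control 2 and il7 mutant 1, held the highest 2 values of isg15, RSAD2, CMPK2, irf1b, irf3 and irf9, which is 6 of the 23 fitted genes against 6.25% of all fitted genes.

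A further pair of regulators each had a highest pair of libraries that only partly matched that of isg15. The gene for the ISG15 protease usp18, which in mammals also damps the type I receptor, stood at 87.4, 216 and 173 in controls, against 242, 115 and 262 in mutants. It was highest in il7 mutants 3 and 1, as were DHX58, crfb1 and stat2. The kinase gene eif2ak2, whose product PKR stops translation on sensing double-stranded RNA, had 123 ± 50.5 in controls, against 157 ± 60.8 in mutants (SD, n = 3) and was highest in il7 mutant 3.

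**Figure D2:**
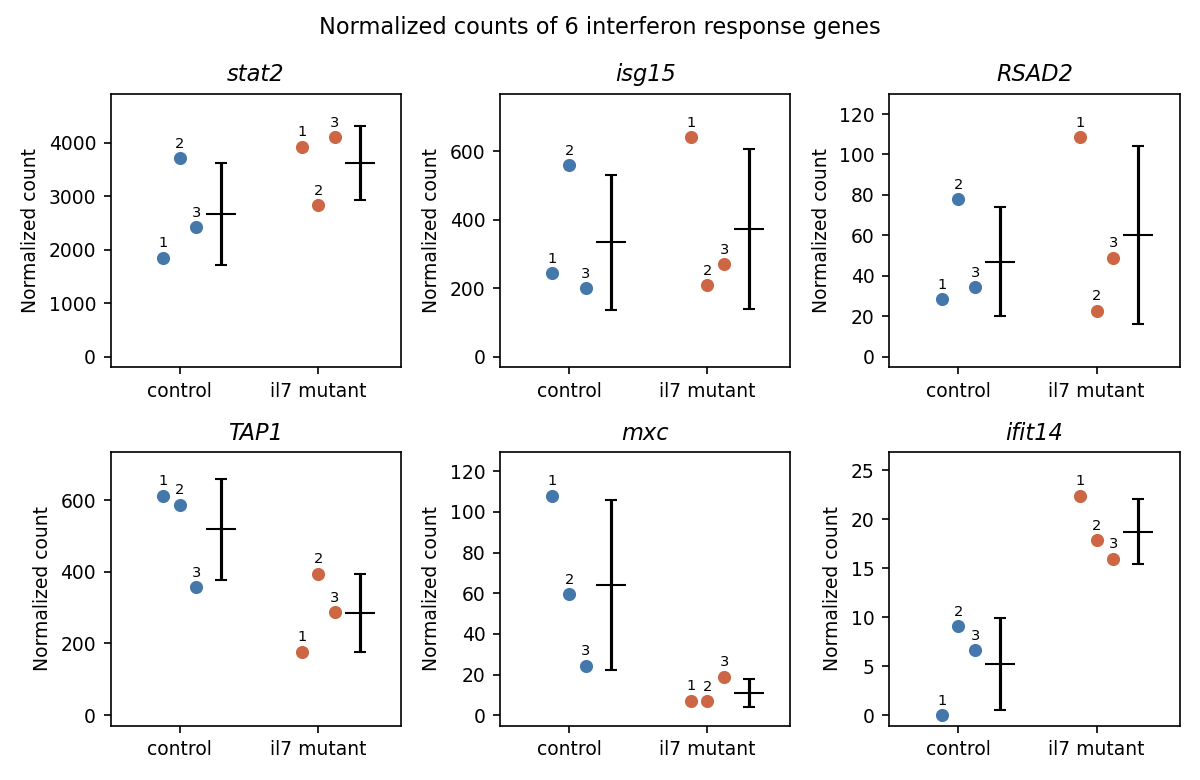
Normalized counts of 6 interferon response genes in each library (points, numbered by replicate), with the mean and SD of each group (n = 3) beside them. Groups overlap for stat2, isg15, RSAD2 and TAP1 and are apart for mxc and ifit14, where the highest points are about 108 and 22.4 counts.

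Mx genes encode dynamin-like GTPases that trap viral components. The gene mxc (ENSDARG00000024789) had 108, 59.6 and 24.4 normalized counts in controls, against 7.07, 6.94 and 19 in mutants. Every control was above every mutant, though control 3 and il7 mutant 3 lay close together. The mutant mean was 17.2% of the control mean (11.0 ± 6.91 against 64.0 ± 41.9, SD, n = 3), and these values came from 22 to 137 reads per control library and 6 to 19 per mutant library. The log2 change of mxc was −2.34 (SE 0.73, 95% interval −4.10 to −0.59), with a limma unadjusted p of 0.0166 and an adjusted p of 1.00. In the authors' deposited table mxc had an unshrunken log2 fold change of −2.54, −1.42 after shrinkage, and an adjusted p of 0.151. Groups lay apart in either direction for 7.94% of all fitted genes, and apart with mutants lower for 4.44%. A two-sided exact permutation test of mxc gave p = 0.1, the smallest that this design allows. Groups that do not overlap must give this value, so the test adds nothing to the separation of mxc. The log2 change was −1.85 without control 1 (limma unadjusted p = 0.0555), −2.13 without il7 mutant 1 (limma unadjusted p = 0.0523) and −1.63 without both oocyte-rich libraries (limma unadjusted p = 0.102).

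The 5 natural killer-like markers, genes of NK-lysin and perforin, were also lower on average in mutants, with none at 0 in a library. In 4 of these 5 the groups lay apart with mutants lower, against 4.44% of all fitted genes. The markers summed to 1056 to 1831 normalized counts in controls, against 371 to 838 in mutants. Limma called 0 of the 5 after adjustment and 4 had an unadjusted p under 0.05, against 3.48% of all fitted genes. The authors' deposited table called 2, against 0.521% of its genes. Their median log2 change was −1.17. It was −0.39 for 4 fitted T cell markers, with ZAP70 apart and lower, and −0.29 for 5 B cell markers, with 0 apart. The part of any of these cells in the mxc difference was not tested. The macrophage and dendritic cell markers marco and csf1ra, 2 of 5 listed, summed to 5788 to 10197 in controls, against 6098 to 8834 in mutants.

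The other Mx genes did not share the separation seen in mxc. The gene mxa had 113, 124 and 46.6 in controls, against 77.8, 42.6 and 41.0 in mutants, with control 3 among the mutants and a log2 change of −0.75 (SE 0.53). The gene mxe, next to mxc in the RefSeq gene order, had 56.3 ± 15.5 in controls, against 58.2 ± 18.4 in mutants (SD, n = 3). The gene mxb, next to mxa, was under the minimum at 9.09 normalized counts or fewer in every library, with 0 in il7 mutants 2 and 3. From the pathway lists, mxd and mxf had log2 changes of −0.21 (SE 0.37) and −0.53 (SE 0.50), with overlapping groups, and mxg was under the minimum. Copies of such families are similar in sequence, so their counts are uncertain.

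IFIT genes encode tetratricopeptide proteins that in mammals bind viral RNA. The gene ifit14 (ENSDARG00000071012) had 0, 9.09 and 6.66 normalized counts in controls, against 22.4, 17.8 and 16.0 in mutants, with all mutants above all controls. It rested on 0 to 9 reads per control library and 16 to 19 per mutant library, and it passed the minimum only through the mutants, at a mean of 18.7 ± 3.30 against 5.25 ± 4.71 (SD, n = 3). Because of that, the log2 change of ifit14, 2.20, is a description and no test is given. It was 1.15 without control 1 and 1.18 without both oocyte-rich libraries. Groups lay apart with mutants higher for 3.51% of all fitted genes. The gene ifit8 had 13.4, 27.3 and 38.8 in controls, against 25.9, 5.95 and 41.0 in mutants, with overlap and the lowest values in both oocyte-rich libraries. The genes ifit9 and ifit10 were under the minimum, with at most 16.5 and 10.1 normalized counts in a library. The gene ifit15, which lies between ifit16 and ifit14 in the RefSeq gene order, was listed at 0 in all 6 libraries, as was mavs, the gene of a widely used adaptor of RNA sensing. A 0 in every library does not tell a silent gene from one whose reads were not assigned to it.

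TAP1 (ENSDARG00000079766), a subunit of the transporter that feeds peptides to MHC class I, had 612, 587 and 357 normalized counts in controls, against 177, 395 and 288 in mutants. Control 3 and il7 mutant 2 overlapped, and the other mutants were below all controls. The log2 change of TAP1 was −0.89 (SE 0.39, 95% interval −1.84 to 0.06), with a limma unadjusted p of 0.0613 and an adjusted p of 1.00, and was −0.58 without il7 mutant 1 and −1.02 without both oocyte-rich libraries. TAP1 and mxc were the 2 of the 23 genes that were highest in control 1, against 31.9% of all fitted genes. The immunoproteasome features PSMB8 and PSMB9, looked at after the matching, had log2 changes of −0.16 (SE 0.26) and −0.10 (SE 0.28).

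**Figure D3:**
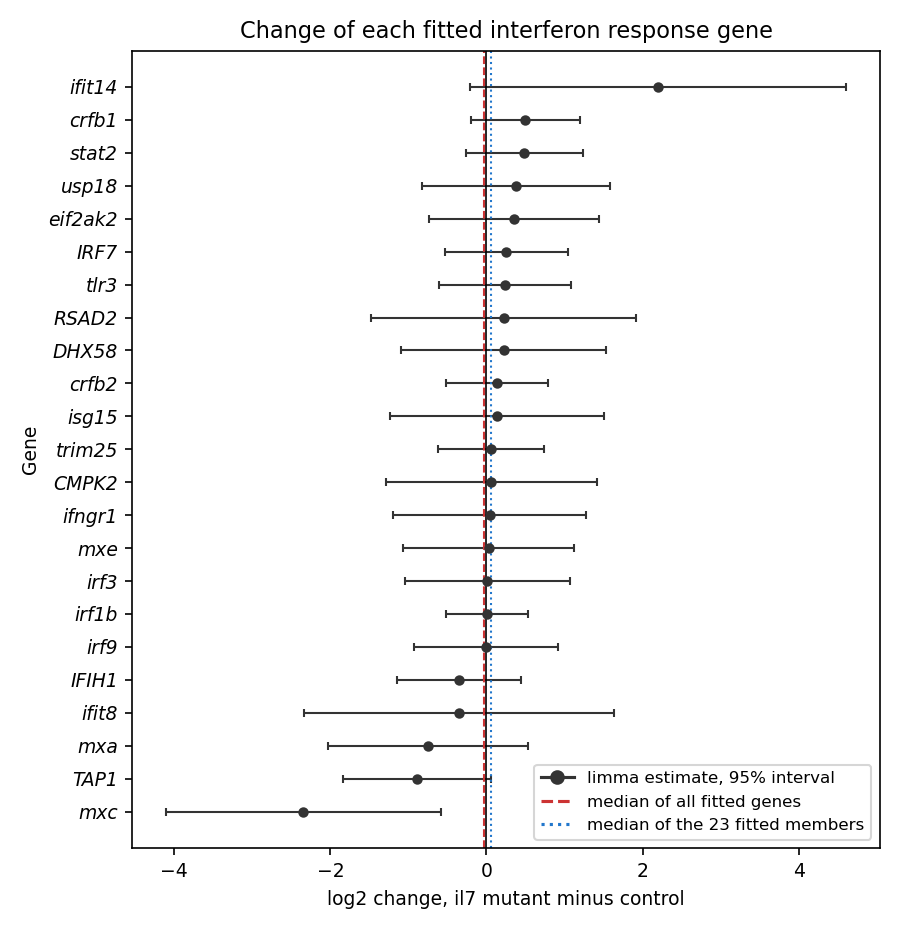
Limma log2 change of each of the 23 fitted interferon response genes (il7 mutant minus control, points) with its 95% interval (bars), sorted by size, with the medians of these genes and of all fitted genes as lines. The interval of mxc is the only one that does not reach 0, before any adjustment for multiple tests. That of ifit14, which passed the minimum only through its mutant values, is drawn as a description and is not a test.

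The precision of these values differed by gene. The 95% interval lay wholly within a 2-fold difference in either direction for 4 of the 23 genes, which were trim25, irf1b, irf9 and crfb2. For the other 19 genes a 2-fold difference in at least one direction was inside the interval. Among these, ifit14 passed the minimum only through its mutant values, so its interval is a description only. The SD within groups, on the log2 scale, ran from 0.20 for crfb2 to 1.3 for ifit14. Its median was 0.56 over the 23 genes, beside 0.51 over all fitted genes.

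Libraries of the same group also differed among themselves. The median of the 23 genes relative to their means was −0.40, 0.39 and −0.15 log2 units in controls, against 0.34, −0.36 and 0.18 in mutants. Control 2 was the highest library for 7 of the 23 genes, against 16.1% of all fitted genes, and control 1 the lowest for 10, against 26.6%. Control 1 and il7 mutant 2, the oocyte-rich pair, held the lowest 2 values of 11 of the 23 genes, against 19.4% of all fitted genes. That pair held the highest 2 values of 0 of the 23 genes, against 23.9% of all fitted genes. The same pair was also lowest in the kidney tubule markers, at −1.23 and −0.73 by the same measure, and in the erythroid markers, at −1.74 and −0.50. Not every list shared this. The neutrophil markers stood at −0.43 in control 1 and were highest in il7 mutant 2, at 0.62. The macrophage and dendritic cell markers stood at −0.06 and 0.11 in that pair and were lowest in control 3, at −0.45. The part of tissue composition in the levels of the interferon response genes was not tested.

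**Figure D4:**
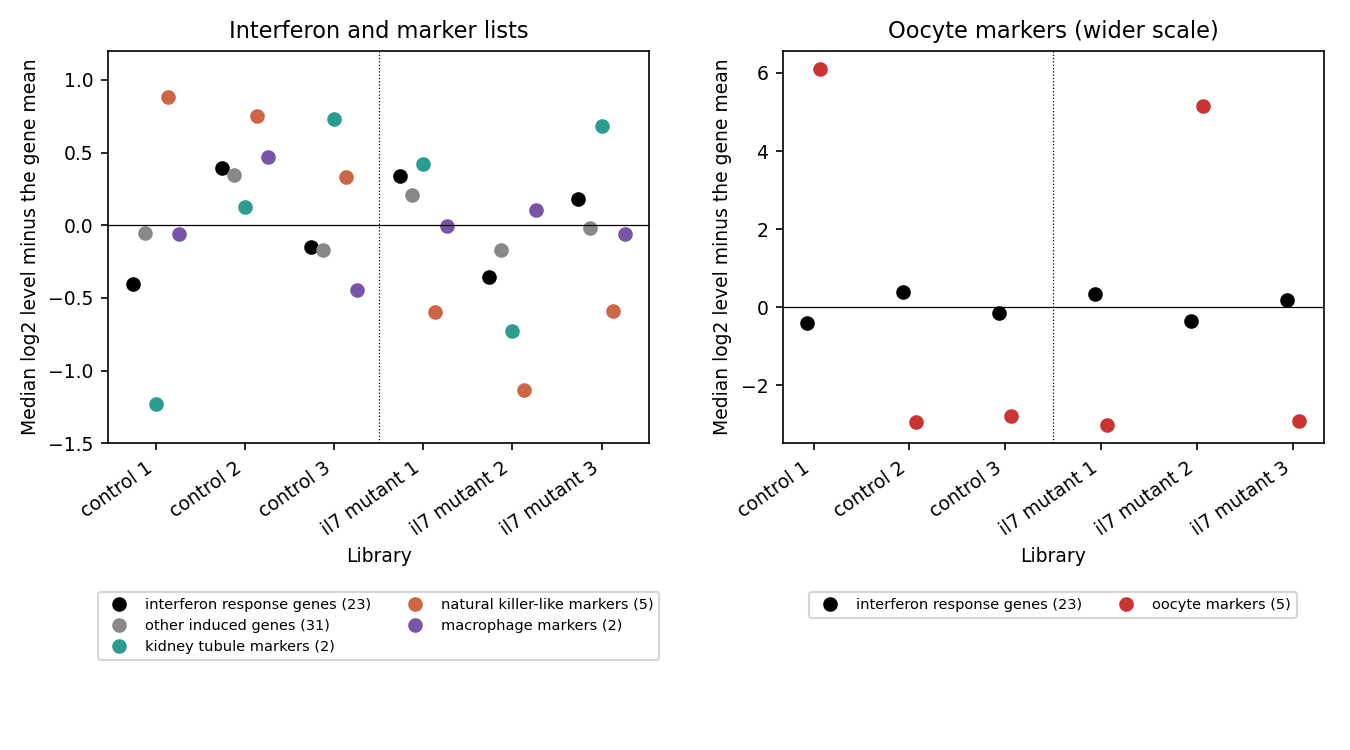
Median over the genes of each list of the log2 level minus the gene's mean over the 6 libraries, by library, with the number of genes in brackets; the right panel has a wider scale. The interferon response genes lie between −0.40 and 0.39, lowest where the oocyte markers reach 6.11 and 5.16, and the natural killer-like markers lie above 0 in controls and below 0 in mutants.

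Without the oocyte-rich pair, 8 of 24 fitted genes had groups that lay apart among the remaining 4 libraries, against 32.2% of all fitted genes. DHX58, crfb1, stat2, usp18 and ifit14 were the 5 with higher values in mutants, where the share of all genes was 15.8%. Of the 5, ifit14 passed the minimum only through its mutant values. IFIH1, mxc and TAP1 were the 3 with lower values, against 16.5%. Limma then called 0 of the 24 genes after adjustment, and 0 over all genes. An unadjusted limma p under 0.05 was found for 1 of the 24, crfb1, and for 1092 of 20270 over all genes. The log2 change of crfb1 was then 0.65, with an unadjusted limma p of 0.0452.

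The wider pathway was read from 6 lists of 142 further symbols, of which 98 were found and 80 fitted. Limma called 0 of the 80, against 0.0% of all fitted genes, and 0 had an unadjusted p under 0.05. Their median log2 change was −0.03, with 37 positive and 43 negative values. Groups lay apart for 3 of the 80, IKBKE and IRF8 with lower and MYD88 with higher values in mutants, against 7.94% of all fitted genes.

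The interferon genes themselves were barely detected apart from ifnphi1, a type I ligand gene. It had 37.0, 98.0 and 64.3 normalized counts in controls, against 114, 44.6 and 92.9 in mutants, with overlapping groups and the lowest values in control 1 and il7 mutant 2. The gene ifnphi3 had at most 11.0 normalized counts in a library, ifng1, the interferon gamma gene, at most 9.43, ifnphi2 at most 5.99 and ifnphi4 at most 2.36. A single read of ifng1r was seen, in control 1.

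Of the other receptor chains, kinases and feedback genes, 8 were fitted, with 5 positive and 3 negative log2 changes. The kinase gene jak2a had 2726, 6712 and 5791 normalized counts in controls, against 10637, 4560 and 8221 in mutants, a log2 change of 0.64 (SE 0.46). The kinase gene TYK2 and the phosphatase genes ptpn2a and PTPN6 had log2 changes of 0.20, 0.23 and −0.24. Of the other sensors and adaptors, 17 were fitted. IKBKE, whose product phosphorylates IRF3 and IRF7, had 1076, 1356 and 1197 in controls, against 902, 826 and 891 in mutants, so every mutant was below every control. Its log2 change was −0.46 (SE 0.20), with a limma unadjusted p of 0.0532 and an adjusted p of 1.00. TRAF6, tank and IRAK4 had 0.62, −0.45 and −0.36 on the same scale. MYD88, the adaptor of most Toll-like receptors, had 626 ± 4.27 and 644 ± 11.6 normalized counts (SD, n = 3), so its groups lay apart at a log2 change of 0.04.

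Of the list of other regulatory factors, 7 genes were fitted. IRF8, which directs macrophage and dendritic cell development, had 1197, 1636 and 1213 normalized counts in controls, against 967, 1022 and 856 in mutants, with each mutant below each control. Its log2 change was −0.50 (SE 0.22), with a limma unadjusted p of 0.0615. The genes irf10 and irf2a had log2 changes of −0.58 and −0.22. IRF2BP1, on the same list, encodes a protein that binds IRF2 and is not itself such a factor, and had 0.12. Of the other induced genes, 31 were fitted, with a median log2 change of −0.10. The kinase gene pkz, a relative of PKR in fish that lies next to eif2ak2, had 114 ± 38.6 in controls, against 163 ± 43.5 in mutants (SD, n = 3). The ISG15-activating enzyme gene uba7 had 493 ± 159 and 328 ± 31.1 (SD, n = 3), and ZNFX1 and gbp4 had log2 changes of 0.35 and −0.86.

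The other class I antigen processing genes had narrow intervals. The 95% interval lay within a 2-fold difference for 14 of their 16 fitted genes, and the log2 changes ran from −0.21 to 0.42. The class I gene mhc1zda had 532 ± 118 in controls, against 715 ± 167 in mutants (SD, n = 3), the largest change of the list at 0.42 (SE 0.30). The class I regulator gene nlrc5 had a log2 change of 0.23, the peptidase gene erap2 −0.21 and the peptide editor gene tapbp.2 −0.17. A further 5 of the 21 found, such as mhc1zba and psmb13a, were listed at 0 in all 6 libraries, which does not show that they are silent.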

How the data were processed

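The RNA libraries were stranded and ribosome-depleted, per the labels' protocols. Tools and build named by the submitters' notes, with no role given, were STAR 2.5.3a, featureCounts 1.5.2, DESeq2 1.14.1, bcl2fastq 2.17.1.14 and GRCz10; how reads of similar or overlapping genes were counted was not given. The deposited signal is a normalized count per gene. Within a column, values were whole multiples of the lowest one above 0 (tolerance 1e-06 reads), which gave the reads and depths printed; count models were not used. The authors' deposited table holds log2 fold changes, p-values and a Wald score, the last not used.

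Genes averaging at least 10 normalized counts were compared as log2(normalized count + 1), which understates changes of low genes, with limma 3.58.1 in R 4.3.3 (variance trend, two-sided, Benjamini-Hochberg at 0.05), after the step was tested on simulated data. Exact permutation tests used scipy 1.17.1. Groups and replicate numbers come from sample titles, symbols from a gene name table and gene order from RefSeq GRCz12tu. Of the 8 listed symbols without a match, crfb5, crfb17, ifi44g, helz2, psmb8a and psmb9a are named here, and the other 2 are not reported here. No replicate libraries agreed within sampling noise (smallest chi-square per degree of freedom 90.8).

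The genes, lists and tests were chosen with earlier results of these data known. By rule, all 27 found genes are named, and 6 library values are given for genes at an unadjusted p under 0.05 or with groups apart and for the highest and widest-ranging gene of each role, with up to 4 genes of smallest p per pathway list. Library values of further genes, and MYD88, mxd, mxf and mxg, were chosen after their values were seen. Alternatives covered the pseudocount, filter, scaling, variance model, a replicate block and left-out libraries.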

Additional observations from a re-analysis of the deposited data

How the results depend on the processing

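Limma called 0 of the interferon response genes and 0 genes in all under each of the 16 alternatives run, which were pseudocounts of 0.5 and 4, no filter, a filter at 50, quantile normalization, no variance trend, array quality weights, the replicate block, a term for the oocyte-rich pair, each library left out, and both oocyte-rich libraries left out. Over all genes, those at an unadjusted p under 0.05 ranged from 492 without il7 mutant 3 to 1672 with a term for the oocyte-rich pair, against 723, and 1563 with array quality weights. Among the interferon response genes that count was 1. It ranged from 0, at a filter of 50 (which drops mxc) and without control 1 or il7 mutant 1, to 4 with the oocyte term. With that term stat2, mxc and TAP1 had limma unadjusted p-values of 0.0475, 0.0167 and 0.0267. The count of 4 includes ifit14, which passed the minimum only through its mutant values, so no p-value is given for it. The median log2 change of the interferon response genes ranged from −0.13 when il7 mutant 1 was left out to 0.41 when il7 mutant 2 was, so its sign rests on single libraries. It was 0.14 with quantile normalization, 0.17 without both oocyte-rich libraries, and 0.06 with the PSMB8 and PSMB9 features, an alternative added after seeing the data. The sign changed for 9 of 23 genes without control 1 and for 8 of 22 without il7 mutant 1, and no gene passed the threshold in either case. The number of genes with groups apart was 2, beside 7.94% of all fitted genes. It ranged from 2 to 7 when each library was left out, for which the share over all genes is not given here. Without both oocyte-rich libraries it was 8 of 24, beside 32.2% of all fitted genes. These counts were added after seeing the data, and fewer libraries separate more easily. Same-numbered libraries correlated at −0.51, −0.40 and 0.51 in their deviations from the group means, and not every library correlated best with its own number. Control 1 correlated best with il7 mutant 2, at 0.73, and these are the oocyte-rich pair. The correlations therefore cannot show whether same-numbered libraries were prepared together. With the replicate block, limma called 0 interferon response genes and 0 genes in all, with 634 genes at an unadjusted p under 0.05 and an unmoved median of 0.06. The planned edgeR, DESeq2 and TMM alternatives on reads were not run. Depth limits ifit14, mxb, ifit9 and ifit10, each with at most 19 reads in a library.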
